A study of Mus musculus with 18 samples.

Results

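The data were the 3 arrays that held Dnmt3ab-deficient mouse induced pluripotent stem cells (iPSC) in Cy5 beside mouse embryonic fibroblasts (MEF) in Cy3, of 18 two-channel Agilent arrays in all. They were chosen by their labels, 1 array for each deficient clone, which the labels call 8, B2 and A6. On another 3 arrays the same clones, in Cy3, were set against the mouse embryonic stem cell (ESC) line V6.5 in Cy5. The last 12 held control iPSC lines 3 to 6 beside the 3 clones with some signs of differentiation, and the series compared deficient with control lines. By their labels all 3 clones are deficient for Dnmt3ab, that is for both de novo DNA methyltransferases. The sources used here give no strain, age or passage for the MEF and do not give the exons removed, the cells each clone was made from or the reprogramming factors. Clones had been grown on irradiated MEF and then passaged on gelatin without new feeder cells before RNA was taken, and the share of feeder RNA left in a clone's channel was not measured. MEF served as a reference RNA of 1 label on all 3 arrays, and the labels leave its channels out of the submitters' own statistics. Clone 8 was read on 1 slide and clones B2 and A6 on another, so for clone 8 clone and slide cannot be told apart.

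Fibroblasts are mesenchymal cells that secrete and pull on a fibrous matrix, adhere through integrins and divide with a long G1 phase. Reprogramming by forced expression of transcription factors turns them into cells that resemble ESC, which are joined into compact epithelial colonies, replicate DNA for much of their cycle and keep a self-sustaining network of pluripotency factors. Dnmt3a and Dnmt3b add methyl groups to unmethylated CpG sites, and Dnmt1 copies existing methylation to the new strand after replication. The question of the contrast with MEF is which genes separate the reprogrammed from the somatic state in clones without de novo methyltransferases.

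Each value below is a within-array log2 ratio of deficient iPSC over MEF, so 1 unit is a doubling and a negative value means more RNA in MEF. It is given as the mean ± SE of the limma fit over 3 arrays, and where 3 values follow each other they are those of clones 8, B2 and A6 in that order. Calls are limma's, at an adjusted p under 0.05 over 20989 genes tested, against a ratio of 0. Because the same MEF RNA was in every array, the SE holds the spread of the clones and arrays and not that of MEF cultures, and no array had the dyes exchanged. The labels do not say that the clones' RNAs came from separate cultures beyond the clone names. In bulk RNA, fewer cells of a type and less RNA per cell cannot be told apart.

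The 4 marker genes separated the samples as their labels say. Sox2, a transcription factor of pluripotent cells, was at 7.28, 6.998 and 7.02 (7.10 ± 0.0745, adjusted p = 6.54e-06). Mycn, a growth-promoting transcription factor abundant in ESC, was at 6.77, 6.78 and 6.87, and its second probe gave 3.05. Both were high in every clone, with differences between clones far smaller than the ratio. Col1a1, the main collagen of fibroblasts, was at -6.46, -6.46 and -6.55, with 3 probes from -6.49 to -2.90. Aspn, a small proteoglycan of connective tissue, was not well above background in any deficient channel, and MEF held at least 58.4-fold more. It entered the test through MEF only, so limma's adjusted p of 1.16e-05 is given as a record and supports nothing further. Bounds of this kind set the mean of the brighter RNA against, on each array, the higher of the lowest signal measured above background and the dim probe's own signal. Where the dim probe's own signal was the higher on every array, the bound equals the measured ratio.

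Most genes differed. Of 20989 genes, 7196 rose (34.3%) and 6982 fell (33.3%), and the median ratio over all genes was 0.01. At least 1 log2 unit separated 2771 of the higher genes (13.2% of those tested) and 3153 of the lower (15%), and 124 rose and 122 fell by at least 4 units. All 3 clones lay on the same side of 0 for each of the 14178 genes called. A call tests the mean of the same 3 ratios, so this is largely built in and is no separate agreement. The clones' ratios correlated at 0.968 to 0.989 across genes, which are not independent replicates. MEF had no signal well above background on any array for 650 of the genes that rose, and the deficient clones none for 306 of those that fell. Of 7010 genes read by several probes, 458 had probes called in opposite directions, so a gene's value can depend on its probe. A gene's value here is that of its brightest probe. Other probes are given below for some genes only. For several of the rest the probes differed widely, such as Erbb3 (0.15 to 3.71), Bmf (0.09 to 2.47), Celf2 (-2.23 to -0.17) and B2m (-3.92 to -0.65). The split of calls depended on dye scaling: 50.8% of calls were higher here, against 57.9% with Agilent's own dye-normalized signals and 61.2% without loess, where the median over all genes was 0.12 for both.

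The largest rises measured in both RNAs went beyond the pluripotency factors. Dppa5a, an RNA-binding protein of early embryos, led at 7.25, 7.16 and 7.12. Cyct, the testis form of cytochrome c, was at 6.62, 6.75 and 6.70. Rhox5, an X-linked homeobox gene of the reproductive tract, was at 6.24, 6.67 and 6.64, and Smc1b, the meiotic form of a cohesin subunit, at 6.34, 6.82 and 6.37. Of the 8 leading rises, these 3 are thus known from germ cells or the reproductive tract, and each was high in all 3 clones. Zfp42 (Rex1), a zinc finger protein of naive pluripotent cells, was at 6.76, 6.12 and 6.16, highest in clone 8. Nr0b1 (Dax1), a nuclear receptor of the pluripotency network, was at 6.44, 6.06 and 6.25.

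**Figure D1:**
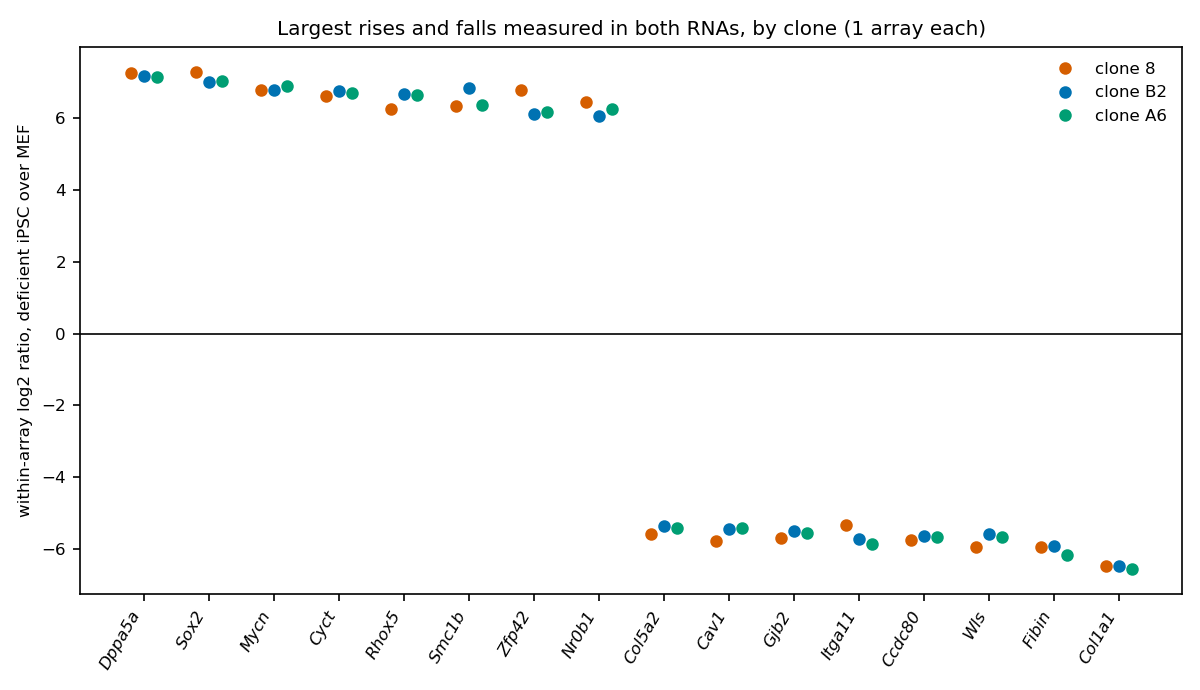
Within-array log2 ratio (deficient iPSC over MEF, y axis) of the 8 largest rises and 8 largest falls among genes above background in both dyes on all 3 arrays, 1 point per clone. Points of a gene lie close together: Dppa5a sits between 7.12 and 7.25, and Col1a1 between -6.55 and -6.46.

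The largest falls were matrix, adhesion and membrane genes. After Col1a1 came Fibin, a secreted protein of embryonic limb mesenchyme, at -5.95, -5.92 and -6.16. Wls, the carrier that takes Wnt proteins to the cell surface, was at -5.93, -5.59 and -5.65, and its other probe gave -2.61. Ccdc80, a secreted matrix-associated protein, was at -5.73, -5.63 and -5.67. All 3 clones were low for each of them, as the choice of leading genes required. Itga11, a collagen-binding integrin subunit, was at -5.33, -5.71 and -5.84, Gjb2, a gap junction connexin, at -5.69, -5.50 and -5.55, Cav1, the scaffold of caveolae, at -5.78, -5.43 and -5.40, and Col5a2, a fibrillar collagen, at -5.58, -5.37 and -5.42. These 16 leading genes had adjusted p-values of 6.54e-06 (Col1a1 among others) to 1.24e-05 (Zfp42), from limma's fit.

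Some genes were measured in 1 RNA only, so their ratio is a lower bound. Deficient clones held at least 41.8-fold more Lrrc34, at least 39.9-fold more Hook1, a linker of vesicles to microtubules, and at least 33.5-fold more Hormad1, a protein of meiotic chromosome axes. Tex14, which keeps the bridges between germ cells open, was at least 16.8-fold higher. In the other direction MEF held at least 16.5-fold more Cpa6, a secreted carboxypeptidase, at least 11-fold more Abi3bp, a matrix protein, at least 7.6-fold more Slc16a4, a monocarboxylate transporter, and at least 6.72-fold more Egr3, an immediate-early transcription factor. Such bounds are those of the brightest probe. As log2 ratios, the other probe gave -0.59 for Abi3bp and -0.18 for Egr3, and 4 Hook1 probes ran from 1.47 to 5.57. These 8 genes entered the test through the brighter RNA only, so their fitted ratios to a background signal had to differ; limma's adjusted p-values for them, from 6.54e-06 (Hook1) to 7.62e-05 (Lrrc34), are given as a record and support nothing further.

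Below, lists of genes by function are described by how many of their tested members rose and fell, to be read against 34.3% and 33.3% of all genes, and by their median ratio, to be read against 0.01. Medians were the same when members with only a bound were set to it. Such members entered the test through the brighter RNA only, so their calls are counted but support nothing further. Up to 3 called members in each direction were named by size, and other members were chosen as examples after their values were seen.

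**Figure D2:**
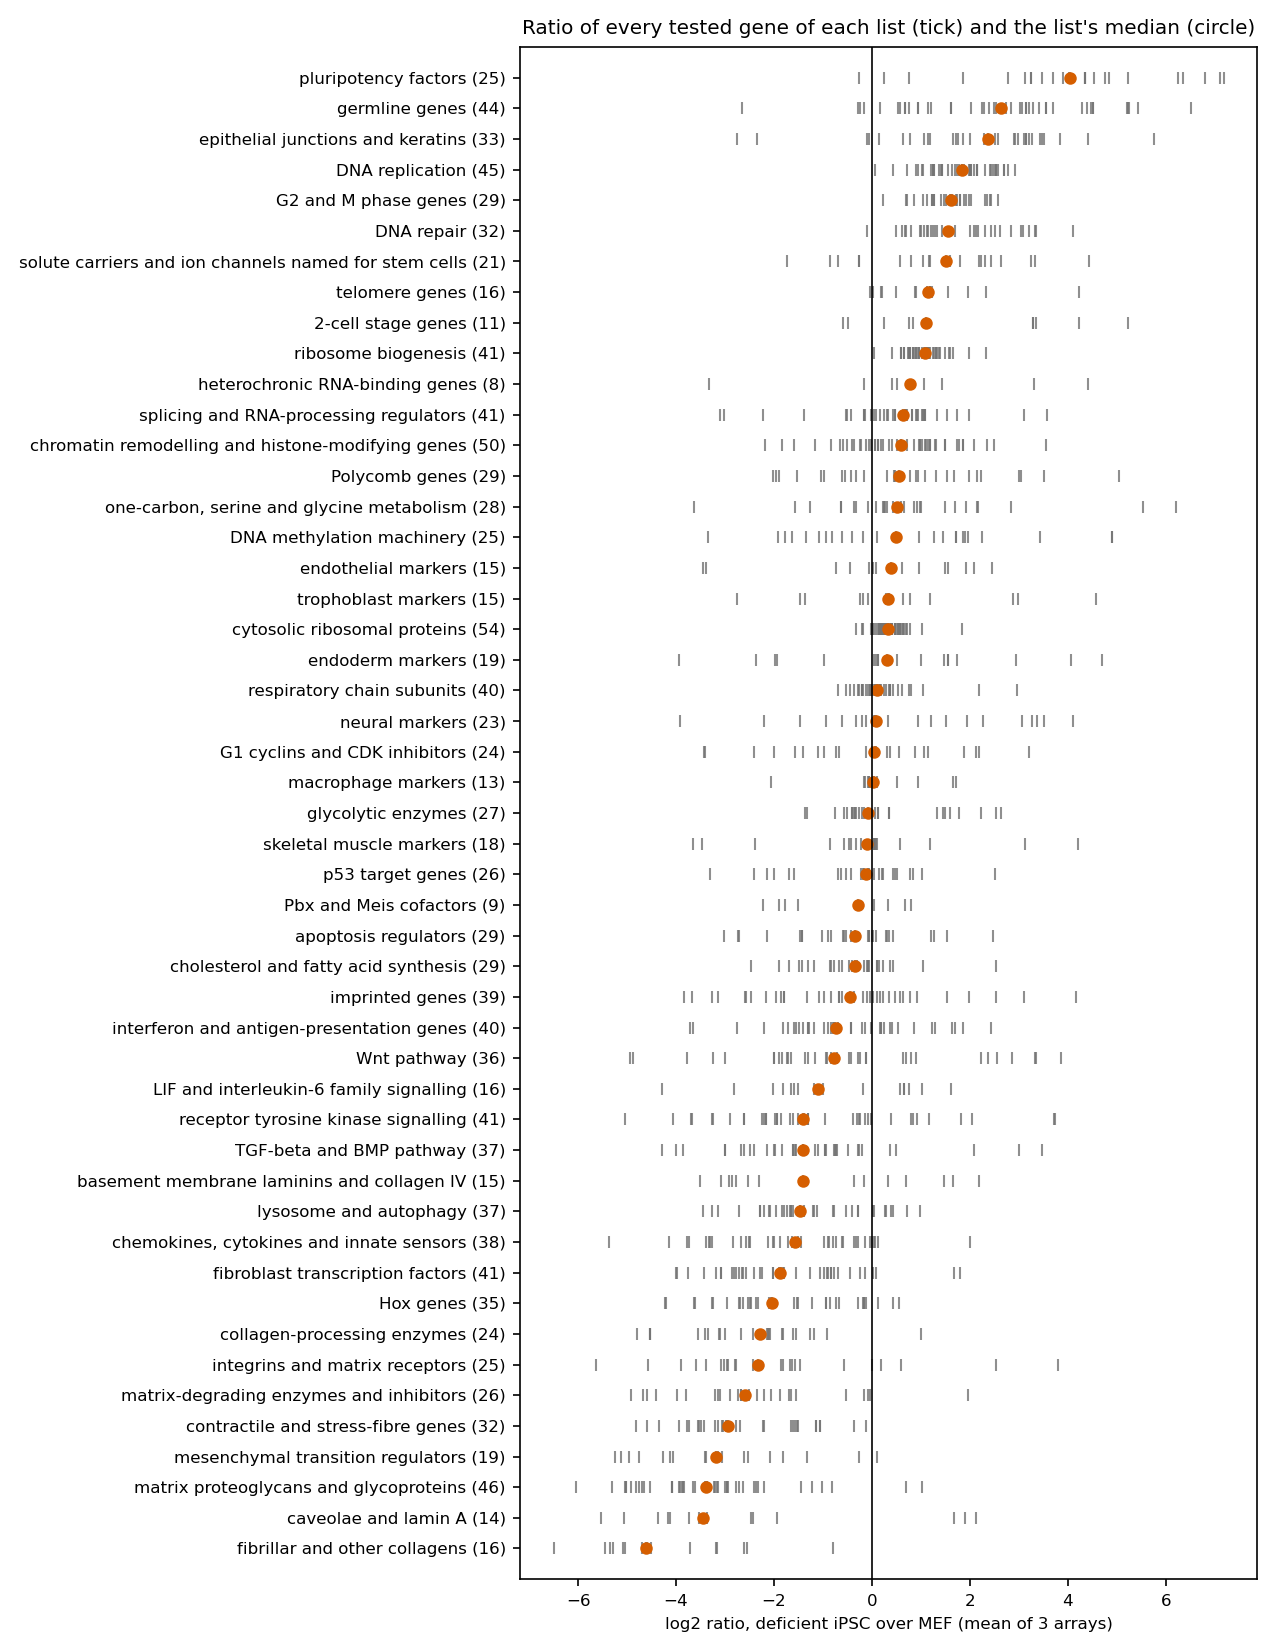
Log2 ratio (deficient iPSC over MEF, mean of 3 arrays, x axis) of every tested member of each of the 49 gene lists, with the number tested in brackets; ticks are genes and circles list medians, and ticks of genes below background in 1 RNA are fitted values rather than bounds. Pluripotency factors (4.05) and germline genes (2.64) lie at the top, collagens (-4.61) at the bottom, and ribosomal proteins and respiratory subunits in a narrow band near 0, where their place depends on the dye scaling as given in the text.

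The DNA methylation machinery moved in both directions: of 25 genes, 13 rose and 11 fell. Dnmt3a, a target of the deficiency, was at -0.77, -0.21 and -0.25 (-0.41 ± 0.128, adjusted p = 0.0418), lowest in clone 8, and its 3 probes ran from -1.24 to 0.38. Without clone 8 it was at -0.23, and the call was lost without B2, without A6, and in a fit over all 18 arrays with a dye term (-0.36, adjusted p = 0.407 in limma). Dnmt3b, the other target, was at 4.48, 5.15 and 5.07, more than MEF in every clone. Whether these probes lie in the removed parts is not known, so the values do not check the labels. The same clones set beside V6.5 ESC gave 1.31 ± 0.382 for Dnmt3b and -1.85 ± 0.349 for Dnmt3a, neither of which passed in limma's fit of those arrays. Dnmt3l, the inactive cofactor of both enzymes, was at 4.80, 4.92 and 4.97, and Dnmt1 at 1.35, 1.22 and 1.23. Hells (Lsh), a remodeller needed for methylation of repeats, rose by 3.44 ± 0.137, and Uhrf1, which brings Dnmt1 to replicated DNA, by 2.24 ± 0.0834. Of the enzymes that oxidise methylcytosine, Tet1 rose by 1.71 ± 0.0554 and Tet2 by 1.97 ± 0.073, while Tet3 was at -1.35 ± 0.169. Of the proteins that bind methylated DNA, Mbd1 was at -1.91 ± 0.067, Mbd2 at -1.63 ± 0.067 and Zbtb4 at -3.34 ± 0.0646. Zbtb33 (Kaiso) fell by 0.93 ± 0.124. Mbd3 was at -0.18 ± 0.0537, a call lost without any 1 clone, and above 0 without loess or with Agilent's own dye normalization. Mbd4, a methyl-CpG-binding repair glycosylase, rose by 1.85 ± 0.0484.

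Pluripotency factors rose almost as a whole, 24 of 25, with none called lower. Pou5f1 (Oct4) was at 4.10, 3.99 and 3.97 and Nanog at 4.44, 4.34 and 4.29, nearly equal in the 3 clones. Klf4, a zinc finger factor that fibroblasts also express, was the exception, at 0.24, -0.63 and -0.39 (adjusted p = 0.26), on both sides of 0. Sall4 gave 0.24 on its brightest probe, a call lost without A6, and 5.53 on the other. Among RNA-binding and chromatin proteins that mark early development, Lin28a, which blocks the maturation of let-7 miRNAs, was at 4.22, 4.53 and 4.50 and Lin28b at 3.24, 3.38 and 3.33. Hmga2, a let-7 target of embryonic mesenchyme, went the other way, at -3.59, -3.30 and -3.12. Other probes gave 0.34 for Lin28b and up to -0.79 for Hmga2. Of the 8 tested genes in that list, 6 rose and 1 fell.

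Genes of epithelial junctions rose, 29 of 33, and 2 fell, with a median of 2.36. For 7 members 1 of the RNAs had no signal well above background on any array, so any calls among them are no support. Cdh1 (E-cadherin), the adhesion protein of epithelial and ES cells, was at 5.88, 5.72 and 5.65, and Epcam, another epithelial adhesion protein, at 4.53, 4.36 and 4.37. Grhl2, a transcription factor of epithelia, was at least 13.7-fold higher and Esrp1, an epithelial splicing factor, at least 8.15-fold higher, both not well above background in MEF. For Grhl2 this holds for the brightest probe, and its other probe gave a log2 ratio of 0.29. Claudins rose with them, Cldn7 by 3.50 ± 0.0787, Cldn4 by 2.51 ± 0.114 (MEF above background on 2 of 3 arrays) and Cldn6 by 2.30 ± 0.0971. The keratins split. Krt8 was at 3.20, 2.94 and 2.80 and its usual partner Krt18 at 0.27, 1.24 and 0.80, although the Krt18 call was lost without B2, without A6 and in the fit over all 18 arrays with a dye term. Krt19 was at -2.73, -2.05 and -2.26 and Krt7 at -2.90, -2.64 and -2.73, both lower than in MEF in every clone.

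Regulators of the mesenchymal state showed the reverse, with 18 of 19 lower, none higher and a median of -3.19. Snai2 (Slug), a repressor of E-cadherin, was at -4.86, -4.996 and -5.04, Foxc1 at -4.98, -5.19 and -5.18 and S100a4, a calcium-binding protein of motile cells, at -5.37, -5.15 and -5.25. Twist2 fell by 4.13 ± 0.0618, Prrx1, a homeobox gene of limb mesenchyme, by 3.41 ± 0.0533, Zeb2 by 3.14 ± 0.0949 and Zeb1 by 1.81 ± 0.0675. Cadherins of mesenchyme fell as E-cadherin rose, Cdh11 by 4.76 ± 0.0558 and Cdh2 (N-cadherin) by 3.19 ± 0.172. Vim (vimentin), the intermediate filament of fibroblasts, was at -4.33, -4.21 and -4.26.

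Beyond the collagens, of which 16 of 16 fell, genes for making, filling and remodelling the matrix were lower. Of 24 enzymes and chaperones that process collagen, 23 fell. Serpinh1 (Hsp47), the collagen chaperone, was at -4.11, -5.03 and -5.27, least low in clone 8. Lox, which cross-links collagen, was at -4.58, -4.48 and -4.55, and Adamts2, which trims procollagen, at -4.36, -4.58 and -4.65. Over 4 probes Adamts2 ran from -4.53 to -0.56. Prolyl hydroxylase subunits fell less, P4ha1 by 2.10 ± 0.11 and P4hb by 2.13 ± 0.0467. Pcolce2, an enhancer of procollagen cleavage, was the single rise at 1.14, 0.82 and 1.07, while its relative Pcolce was at -3.01 ± 0.135. Among 46 matrix proteoglycans and glycoproteins 44 fell, with Fbn1 (fibrillin), the core of elastic microfibrils, at -5.42, -5.19 and -5.29 and Ogn, a leucine-rich proteoglycan, at -4.92, -4.996 and -5.20. Ltbp4, a binder of latent TGF-beta, at 0.93, 0.98 and 1.18, and Nid2, a basement membrane linker, at 0.84, 0.68 and 0.57, were the 2 that rose. Proteases and their inhibitors fell together, 22 of 26, with Adamts5, an aggrecanase, at -4.88, -4.92 and -4.99, Timp2 at -4.72, -4.66 and -4.63 and Mmp14, a membrane-bound collagenase, at -4.35, -4.51 and -4.38. Mmp3 (stromelysin) was the exception, higher in every clone at 1.79, 2.24 and 1.86.

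Basement membrane genes did not follow the fibrillar matrix: 8 of 15 fell and 4 rose. Lama4, a laminin chain of mesenchyme and vessels, was at -3.62, -3.40 and -3.48. Lama1, the laminin chain of the early embryo, was at 3.23, 1.69 and 1.61, highest in clone 8, and Lama3, a chain of epithelial laminin, at 1.69, 1.69 and 1.56, although its other probe gave -0.11. Col4a1, the common chain of collagen IV, was at -1.98, -3.47 and -3.80, least low in clone 8. Of 25 integrins and matrix receptors 20 fell and 3 rose. Itgb1, the shared partner of collagen and fibronectin receptors, fell by 2.93 ± 0.0889, although its 3 probes ran from -2.93 to -0.07, and Ddr2, a kinase activated by fibrillar collagen, by 4.57 ± 0.0619. Itga6, a laminin receptor subunit of stem cells and epithelia, rose by 2.53 ± 0.0499, and Itgb7 by 3.80 ± 0.135.

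Contractile and stress-fibre genes fell, 31 of 32, with none higher and a median of -2.95. Tagln (SM22) was at -5.05, -4.73 and -4.65, Myl9, the regulatory myosin light chain, at -4.82, -4.53 and -4.45, and Cnn1 (calponin) at -4.46, -4.23 and -4.35. Acta2, smooth muscle actin, was at -3.59, -3.46 and -3.54 on its brightest probe and ran from -4.90 to -0.71 over 5 probes. Srf, the factor that binds the CArG box of these genes, fell by 1.06 ± 0.05, and its coactivator Mrtfa by 1.51 ± 0.0466, while Myocd was at -0.12 ± 0.0465 (adjusted p = 0.0772). The CArG box, searched by that name on both strands of a RefSeq promoter window (250 bases before to 50 after the start, build GRCm38.p6), was found in 4 of 28 members with a window (14.3%), against 1.57% of all 27025 genes with a window. Over tested genes with a window its share was 1.36%. The window of Myl9, which fell the most among members with a match, shows the box in capitals; it lies at chr2:156775214-156775513 on the + strand, and is read 5′ to 3′.
Myl9: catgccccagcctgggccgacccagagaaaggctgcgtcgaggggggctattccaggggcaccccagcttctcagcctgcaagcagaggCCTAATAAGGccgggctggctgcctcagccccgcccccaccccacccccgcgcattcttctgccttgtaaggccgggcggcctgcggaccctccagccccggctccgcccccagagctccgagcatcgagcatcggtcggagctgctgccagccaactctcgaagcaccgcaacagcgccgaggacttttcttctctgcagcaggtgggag

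Genes of caveolae, which are pits of the plasma membrane, and of the nuclear lamina differed in direction. Of 14 genes of caveolae and the lamina, 11 fell, among them Cavin1 at -4.28, -4.58 and -4.25 and Cavin2 at -5.05 ± 0.0937, which shape caveolae, and Lmna, which encodes the A-type lamins of differentiated cells, at -2.21, -2.63 and -2.43. The other 3 rose, all of the nuclear envelope: Lmnb1 by 2.13 ± 0.0529, Lmnb2 by 1.67 ± 0.0482 and Lbr, the lamin B receptor, by 1.91 ± 0.0743. Over 4 probes Cavin1 ran from -4.37 to -0.46.

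Transcription factors of fibroblasts and of body position fell. Of 41 fibroblast factors 34 fell and 2 rose. Nr2f2 (COUP-TFII), a nuclear receptor of mesenchyme, was at -4.09, -3.91 and -4.02 on its brightest probe, with others up to 0.06. Fosl2, an AP-1 subunit, was at -3.96, -3.93 and -4.04 and Jun, its partner, at -3.16, -2.93 and -3.12. Wt1, at 0.91, 1.99 and 2.12, rose and was lowest in clone 8. Hox genes, which record position along the body, fell in 30 of 35, with Hoxc9 at -4.17, -4.22 and -4.28, Hoxa11 at -4.06, -4.28 and -4.27 and Hoxd13 at -3.24 ± 0.0929. The 2 that rose, Hoxc5 at 0.56 ± 0.0511 and Hoxd1, whose MEF signal was not well above background (at least 1.35-fold), differed by less than 1 unit. In a fit over all 18 arrays with a dye term Hoxc5 was at 0.11 and its call was lost. The Hox cofactor Meis2, at -2.22 ± 0.0545, fell too.

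Signalling genes fell more often than they rose, with ligands and receptors of early embryos among the rises. In the TGF-beta and BMP pathway 31 of 37 fell and 5 rose. Tgfb3 was at -4.43, -4.22 and -4.20 and its receptor Tgfbr2 at -3.83, -3.83 and -3.91, while Nodal, the TGF-beta family ligand of the epiblast, was at 3.36, 3.52 and 3.54 and Acvr2b, a receptor it uses, at 3.28, 2.93 and 2.78. Id3, a target of BMP signalling, fell by 2.50 ± 0.114, and the ligand Bmp4 by 1.996 ± 0.133. Of 41 genes of receptor tyrosine kinase signalling 28 fell and 8 rose. Pdgfrb, the growth factor receptor of mesenchyme, was at -4.84, -5.11 and -5.15 and Axl, another receptor kinase of fibroblasts, at -4.11, -4.03 and -4.04. Kit, the stem cell factor receptor, was at 4.30, 3.37 and 3.55, highest in clone 8, and Erbb3 at 3.59, 3.80 and 3.75. The receptors Pdgfrb and Axl were low, and Kit and Erbb3 high, in all 3 clones.

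In the Wnt pathway 21 of 36 genes fell and 10 rose. Rspo2, a secreted enhancer of Wnt signalling, was at -4.82, -5.01 and -4.96 and Fzd1, a Wnt receptor, at -5.01, -4.87 and -4.75. Lef1, a nuclear factor of the pathway, was at 3.55, 4.25 and 3.79, Tcf7, another, at 3.45, 3.33 and 3.29 and Axin2, a feedback target, at 2.38, 1.81 and 2.51. Sp5, another target, was at 3.31, 1.99 and 2.36, with MEF above background on 1 of 3 arrays. For the cytokine that maintains mouse ESC, LIF, the receptor subunit Lifr rose by 0.66 ± 0.0542 and the shared subunit Il6st (gp130) fell by 2.81 ± 0.0637. Stat3, which carries the signal, fell by 1.19 ± 0.0524, its feedback target Socs3 rose by 1.03 ± 0.117, and Osmr, a receptor for the related oncostatin M, was at -4.36, -4.13 and -4.37. Of the 16 genes of that family 6 rose and 10 fell.

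Genes of DNA replication and mitosis rose with little exception. Of 45 DNA replication genes 44 rose, none fell, and the median was 1.84. Cdt1, which licenses origins, was at 3.14, 2.82 and 2.79, Rfc5, part of the clamp loader, at 2.68, 2.78 and 2.90, and Mcm3, part of the replicative helicase, at 2.71, 2.71 and 2.66. Rrm1, a ribonucleotide reductase subunit, was at 0.07 ± 0.0646 and did not pass (adjusted p = 0.397). All 29 G2 and M phase genes rose, with a median of 1.62. Bub1, a spindle checkpoint kinase, was at 2.60, 2.61 and 2.52, Ect2, which sets the division furrow, at 2.61, 2.29 and 2.41, and Ccnb1 (cyclin B1) at 2.25, 2.30 and 2.38. Rises in both lists were moderate beside those of pluripotency genes and nearly the same in every clone, with list medians of 1.81 to 1.90 and 1.60 to 1.64 over the clones.

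The promoter windows of these lists were searched for short motifs. The E2F motif, searched as TTTCGCGC or TTTGGCGC on both strands, was in 10 of 36 replication genes with a window (27.8%), against 0.833% of all genes with a window. Over tested genes with a window its share was 1.29%. The letters CCAAT, on both strands, were in 20 of 24 G2 and M phase genes (83.3%) and 23 of 36 replication genes (63.9%), against 37.9%. Among the other lists this share ran from 10.5% (integrins and matrix receptors) to 85.7% (cholesterol and fatty acid synthesis). A high share of CCAAT was thus not particular to these lists. The motifs do not overlap in letters, and a match is a description and not a bound site. Cdt1 (E2F motif in capitals) and Bub1 (CCAAT and its reverse complement in capitals) were the members with a match that rose the most; their windows lie at chr8:122567765-122568064 on the + strand and at chr2:127831810-127832109 on the - strand.
Cdt1: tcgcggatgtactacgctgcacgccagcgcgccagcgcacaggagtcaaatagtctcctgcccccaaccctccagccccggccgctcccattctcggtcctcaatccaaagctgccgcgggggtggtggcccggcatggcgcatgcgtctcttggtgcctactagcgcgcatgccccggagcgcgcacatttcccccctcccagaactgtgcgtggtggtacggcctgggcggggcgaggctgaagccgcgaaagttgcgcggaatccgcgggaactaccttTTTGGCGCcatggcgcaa
Bub1: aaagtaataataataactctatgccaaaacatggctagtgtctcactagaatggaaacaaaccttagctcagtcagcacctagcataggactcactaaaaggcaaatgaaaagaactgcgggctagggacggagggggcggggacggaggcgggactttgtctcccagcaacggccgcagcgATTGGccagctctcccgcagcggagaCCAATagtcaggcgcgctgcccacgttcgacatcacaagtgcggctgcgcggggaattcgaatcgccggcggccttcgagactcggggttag

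Genes of the G1 phase moved in both directions. Of 24 G1 cyclins, CDK inhibitors and related genes 10 rose and 10 fell. Cdkn2b (p15), an inhibitor of CDK4 and CDK6, was at -3.61, -3.31 and -3.38, Cdkn1a (p21) at -2.11, -1.72 and -2.15, and Cdkn2a, which encodes p16 and ARF, at -1.09, -1.13 and -1.06. Ccnd2 (cyclin D2) was at -3.46, -3.36 and -3.38 and Cdk6 at -2.41 ± 0.0489, although another Cdk6 probe gave 0.98, while Ccne1 (cyclin E1) rose by 1.88 ± 0.0638, E2f2 by 2.18 ± 0.21 and Mybl2 (B-Myb) by 3.21 ± 0.0514. Among 26 genes that p53 activates 7 rose and 11 fell. Plk2, a kinase, was at -3.76, -3.004 and -3.14 and Tigar, a regulator of glucose use, at 2.69, 2.21 and 2.61. Trp53 itself was at -0.16 ± 0.0445 on its brightest probe and 1.08 on the other, and its ratio was above 0 without loess or with Agilent's own dye normalization. The median of the p53 targets was -0.11 here and 0.21 without loess, so its sign depends on the dye scaling.

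DNA repair genes rose in 31 of 32 cases. Msh6, a mismatch repair protein, led at 4.02, 4.12 and 4.16. Brca1 rose by 3.04 ± 0.049 and Brca2 by 3.09 ± 0.0546, both of which act in repair by recombination. Among 16 telomere genes 14 rose, with Dkc1, a telomerase RNA-binding protein, at 2.26, 2.39 and 2.35 and Terf1, a telomere repeat binder, at 1.72, 2.13 and 2.02. Tert, the telomerase reverse transcriptase, was higher by 0.49 ± 0.0858.

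Polycomb genes, which keep developmental genes silent, moved in both directions: 18 of 29 rose and 11 fell. Cbx7, the chromodomain subunit of ESC, was at 5.07, 4.99 and 5.06. Phc1 rose by 3.04 ± 0.0618 where its relative Phc2 fell by 2.02 ± 0.0531. Bmi1 (Pcgf4) fell by 1.52 ± 0.0816 and Pcgf6 rose by 1.98 ± 0.0445. The subunits of the methylating complex rose, Ezh2 by 2.14 ± 0.051, Suz12 by 2.22 ± 0.0708 and Eed by 1.67 ± 0.0565, with their partners Mtf2, at 3.58, 3.43 and 3.54, and Jarid2, at 3.06, 2.99 and 2.98. Of 50 other chromatin genes 30 rose and 12 fell. Chd7, a remodeller of enhancers, was at 3.58, 3.59 and 3.49 on its brightest probe, with others down to 0.28. Smarca2 (Brm), the alternative motor of the BAF complex, was at -2.14, -2.03 and -2.40, while Smarca4 (Brg1) was at 0.23 ± 0.0591, a call lost without B2, without A6 and in the fit over all 18 arrays with a dye term.

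Metabolic genes changed enzyme by enzyme. Tdh, which breaks down threonine in mouse ESC, was at 6.42, 6.01 and 6.20, and Gldc, of the glycine cleavage system, at 5.74, 5.43 and 5.46. Aldh1l2, a mitochondrial folate enzyme, was at -3.72, -3.48 and -3.72, and Phgdh, the first enzyme of serine synthesis, fell by 1.56 ± 0.118. In that list 18 of 28 rose and 7 fell. Among 27 glycolytic genes 10 rose and 10 fell: the glucose transporters Slc2a3 and Slc2a1 rose by 2.63 ± 0.0514 and 2.22 ± 0.122, Hk2 rose by 1.78 ± 0.0616 where Hk1 fell by 1.32 ± 0.0941, and Ldhb rose by 2.54 ± 0.084. Ldha was at -0.38 ± 0.0733, but at 0.64 without loess, as was the median of the list, which was -0.08 here. Of 40 respiratory chain subunits 16 rose and 9 fell, with a median of 0.10 that was 0.71 without loess and 0.0063 in the fit over all 18 arrays with a dye term. Those that rose by at least 1 unit were Cox7a1, a heart and muscle isoform, at 3.12, 2.83 and 2.93, Cox6b2, a testis isoform, at 2.30, 2.13 and 2.14, and Cyc1 at 1.04 ± 0.0466. In cholesterol and fatty acid synthesis 15 of 29 fell and 5 rose, with Scd2, a desaturase, at -2.46 ± 0.0788; the median, -0.36 here, was 0.041 without loess. Acacb was at 2.53 ± 0.0651 on 1 probe and 0.00 on the other.

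Of 41 ribosome biogenesis genes 40 rose and none fell, with a median of 1.08, and Npm1 (nucleophosmin) was at 1.55, 1.61 and 1.59. Of 54 cytosolic ribosomal proteins 40 rose and 2 fell, with a median of 0.32. Their size depended on the treatment of the dyes: the median was 1.30 without loess and 0.043 in the fit over all 18 arrays with a dye term, and both falls, Rps9 and Rpsa, were above 0 without loess. Rpl39l, the testis and stem cell copy of Rpl39, stood apart at 1.69, 2.16 and 1.66. Ribosomal protein probes can also read near-identical pseudogene copies, so single members are uncertain.

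Regulators of splicing included several of the larger differences. Mbnl1 was at -3.14, -2.98 and -2.94 and Mbnl2 at -3.29, -2.93 and -3.06, which promote splicing patterns of differentiated cells, although each had a probe near 0 (0.04 and -0.32). Celf2 fell by 2.23 ± 0.0949 and Rbfox2 by 1.38 ± 0.0797. Elavl2, an RNA-binding protein of neurons and germ cells, was at 3.86, 3.48 and 3.37. Of the 41 genes 28 rose and 8 fell.

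Germline genes rose in 39 of 44 cases, with a median of 2.64. Dazl, an RNA-binding protein of germ cells, was at 5.26, 5.35 and 5.72, with MEF above background on 2 of 3 arrays. Ddx4 (Vasa), a germ cell helicase, was at 5.07, 5.08 and 5.52, Stra8, a factor of meiotic entry, at 4.55, 4.54 and 4.46, and Mael, of the piRNA pathway, at 3.99, 4.80 and 4.77. For 11 members 1 of the RNAs had no signal well above background on any array, so their sizes are bounds and any calls among them are no support. Tdrd7, a Tudor protein with roles outside the germline, fell, at -3.15, -2.23 and -2.58. Spo11, which cuts DNA in meiosis, was at -0.25 ± 0.0457, a call lost without B2 or without A6, and Tuba3a gave -0.27 on its brightest probe and 3.15 on the other. Promoter windows of 38 members held a median of 19 CpG sites, against 7 over all 27025 genes with a window and 18 over the 13298 tested genes that had one, and a CpG observed over expected ratio under 0.35 was found in 5.26% of them against 46.7% and 23.7%. The median was thus near that of the tested genes, and the share of CpG-poor windows was lower. In the other lists this share ran from 0% (DNA repair and Polycomb genes among them) to 100% (macrophage markers). A low share was thus not particular to germline genes. A window was found for 63.4% of all tested genes and 86.4% of the germline genes, so the contrast between them is incomplete. The window of Smc1b, the member that rose the most, held 29 CpG sites, shown in capitals, and lies at chr15:85131908-85132207 on the - strand.
Smc1b: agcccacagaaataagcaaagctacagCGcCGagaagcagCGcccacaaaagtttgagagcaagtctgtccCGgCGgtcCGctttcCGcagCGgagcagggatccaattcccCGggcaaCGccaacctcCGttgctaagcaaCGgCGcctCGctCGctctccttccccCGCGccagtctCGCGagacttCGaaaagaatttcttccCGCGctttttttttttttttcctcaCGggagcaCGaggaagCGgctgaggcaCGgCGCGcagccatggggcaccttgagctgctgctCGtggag

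Of 11 genes of the 2-cell embryo 8 rose and 1 fell, and the clones differed in level. Zscan4c was at 3.55, 4.12 and 5.01, Tcstv3 at 2.28, 3.47 and 4.32 and Dppa3 (Stella) at 5.10, 5.39 and 5.20. Clone A6 was highest and clone 8 lowest for Zscan4c and Tcstv3, and the list medians were 0.60, 1.11 and 1.63. Either probe may read several near-identical copies of its gene. Imprinted genes, which are expressed from 1 parental copy, rose in 12 of 39 cases and fell in 21. Phlda2, a maternally expressed gene of the placenta, was at 4.37, 4.05 and 4.11 and Peg3, paternally expressed, at 1.35, 1.61 and 1.61. Igf2 was at -3.22, -3.26 and -3.35 and its neighbour H19 at -1.83, -1.81 and -1.91. Dlk1 and Meg3, reciprocally imprinted neighbours, were at -3.56, -2.90 and -2.97 and at -2.34, -1.40 and -1.68, both lowest in clone 8.

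Innate immune genes were lower in the clones. Of 38 chemokines, cytokines and innate sensors 31 fell and 1 rose. Cxcl12, the stromal chemokine, was at -5.37, -5.25 and -5.46, Tlr4 fell by 2.51 ± 0.0679, Tnfrsf1a, the main TNF receptor, by 3.31 ± 0.0469, and Rela, an NF-kappaB subunit, by 1.72 ± 0.0527. Cxcl10 was the rise, at least 4.02-fold over MEF, where it was not well above background, a call lost without A6. Of 40 interferon and antigen-presentation genes 23 fell and 9 rose. B2m, the light chain of class I molecules, was at -3.59, -3.71 and -3.82, and H2-K1 fell by 1.42 ± 0.171. Ifitm1 rose, at 2.56, 2.44 and 2.30, with Irf1 at 1.46, 2.29 and 1.80 and Psmb9, an immunoproteasome subunit, at 1.21, 1.86 and 1.81. Clone B2 was highest for Cxcl10, Irf1 and Psmb9.

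Lysosomal genes fell in 28 of 37 cases and rose in 5, none by a full unit. Ctsh, a cathepsin, was at -2.35, -3.39 and -4.08, with clone 8 least low. Lamp2 was at -3.08, -3.37 and -3.93, and Sqstm1 (p62), an autophagy adaptor, fell by 1.97 ± 0.0959. Over 3 probes Lamp2 ran from -3.51 to -0.28. Among 29 apoptosis regulators 15 fell and 7 rose: Casp8, the caspase of death receptors, was at -2.54, -2.83 and -2.79, while Bmf, a BH3-only protein, was at 2.78, 2.35 and 2.29 and Mcl1, a survival protein, at 1.32, 1.95 and 1.33. In 21 transport and channel genes named for stem cells 16 rose and 4 fell. Slc27a2, a fatty acid transporter, was at 4.26, 4.64 and 4.41, with MEF above background on 2 of 3 arrays. Slc7a11, the cystine transporter, was not well above background in the clones and at least 3.24-fold higher in MEF.

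Markers of cells other than fibroblasts or stem cells were checked in both RNAs. Of 18 macrophage markers with a probe, 13 were tested, 4 of them rose and 1 fell. Ptprc, Itgam, Tyrobp, Aif1 and C1qc were not above background in enough channels to be tested. Lyz2 was the fall, at -2.06 ± 0.047. Among the rises were Cd68 at 1.71 ± 0.0556, Laptm5 at 1.65 ± 0.132 (MEF above background on 2 of 3 arrays) and Fcgr3 at 0.94 ± 0.0621. Of 18 skeletal muscle genes 4 rose and 8 fell: Acta1 and Actc1, muscle actins, fell by 3.66 ± 0.0507 and 3.48 ± 0.0477, while Mylpf, a fast muscle myosin light chain, was at 4.30, 4.06 and 4.24 and Tnnt1 at 2.79, 3.44 and 3.11. Myod1 and Myog were at 0.09 ± 0.048 and 0.05 ± 0.0481 and did not pass. Of 15 endothelial markers 7 rose and 4 fell, with Pecam1, which ESC also carry, at 2.46 ± 0.0491 and Flt1 at -3.45 ± 0.118 (other probes up to 0.09). Erg was at -3.39 ± 0.144 and Eng at -0.74 ± 0.0872, while Egfl7 was at 1.92 ± 0.0537. Cdh5 had too low a signal to be tested. Neural markers rose in 11 of 23 cases and fell in 6: Otx2, a factor of epiblast and forebrain, rose by 3.37 ± 0.169, Pax6 was at least 10.4-fold over MEF, where it was not well above background, and Zic1 fell by 3.93 ± 0.054. A second Pax6 probe gave a log2 ratio of 0.96. Of 15 trophoblast markers 8 rose and 5 fell. Tfap2c, shared with germ cells, was at 4.57 ± 0.0609, while Gata3 was at -1.46 ± 0.298 and Gata2 at -1.37 ± 0.083. Krt8, which rose, and Krt7, which fell, are given above. Dlx3, Elf5, Gcm1 and Tpbpa had too low a signal to be tested. The part of these cell types in the results was not tested.

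Endoderm markers rose in 8 of 19 cases and fell in 4, and clone 8 stood apart in several of them. Srgn, a secreted proteoglycan, was at 6.82, 4.15 and 3.13, with MEF above background on 1 of 3 arrays. Cubn, an endocytic receptor of visceral endoderm, was at 4.59, 0.26 and 0.33 and its partner Amn at 3.41, 0.58 and 0.65. Clone 8 alone was far above MEF for both, and neither passed over the 3 clones (adjusted p = 0.178 and 0.0863). Sox17 was at 1.73, 0.64 and 0.61, Foxa2 at 2.73, 1.25 and 0.42, with MEF above background on 1 of 3 arrays, and Gata6 at 0.42, -1.89 and -1.48. Without clone 8 the fit gave 0.63 for Sox17 and 0.83 for Foxa2, whose call was lost without B2. Neither was called in the fit over all 18 arrays with a dye term. Dab2, an endocytic adaptor of endoderm and fibroblasts, was at -0.72, -3.12 and -3.26, called only with all 3 clones or without clone 8. In Gata6 clone 8 was above MEF and the other clones below it. Lama1 and Col4a1, given above, were also highest in clone 8, whereas Lrp2, at 3.06, 3.01 and 2.76, and Hhex, at 4.36, 3.70 and 4.16, were alike in all 3. As means over clones, 4 Lrp2 probes ran from 0.28 to 2.94, and a second Hhex probe gave 0.70. On the other arrays, beside V6.5 ESC, the same clones gave 2.37, -0.97 and -0.61 for Cubn, 1.15, -0.22 and -0.16 for Lama1 and 2.74, -0.17 and -0.58 for Srgn, so clone 8 was the highest there too. Each clone was read beside ESC on the same slide as beside MEF. Clone 8 and its slide cannot be told apart there either. Gata4, at 0.21, 0.05 and 0.09, and Afp, at 0.14, 0.64 and 0.77, were near MEF or low in clone 8. Serpinh1 and Ctsh, least low in clone 8, moved with these markers over the clones, and the part of endoderm cells in them was not tested.

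The widest ranges over clones were found in 8 genes. Eif2s3y, on the Y chromosome, was at 6.43, 1.35 and 1.33 and Ddx3y, also on the Y chromosome, at 3.70, 0.66 and 0.96. MEF was not well above background for either, so these ratios are taken against a background signal. Hkdc1, a hexokinase-related gene, was at 3.34, 1.40 and 0.34, and Aqp8, a water channel, at 3.09, 0.24 and 0.17, again highest in clone 8. Fgf5, a growth factor of the primed epiblast, was at -0.72, 2.32 and 1.15 and Gbp3, an interferon-induced GTPase, at -0.53, 2.35 and 0.77, lowest in clone 8 and highest in B2. Cubn and Srgn complete the 8. Clone 8 lay more than 0.5 units from the 3-clone mean in 498 genes, against 178 for B2 and 122 for A6, and it was the clone read on its own slide. Xist, the RNA that coats the inactive X chromosome, was at -5.70, -4.72 and -5.46, low in all 3 clones and above background in 1 of them.

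**Figure D3:**
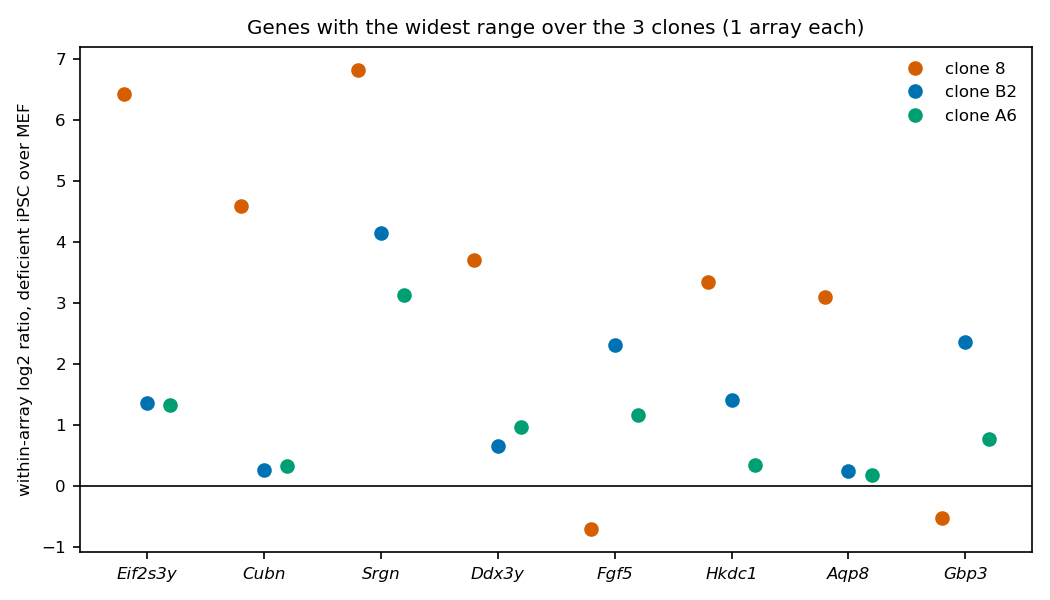
Within-array log2 ratio (deficient iPSC over MEF, y axis) of the 8 genes with the widest range over clones, 1 point per clone. Clone 8 is highest for 6 genes, among them Srgn at 6.82 and Cubn at 4.59, and lowest for Fgf5 and Gbp3.

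Chromosome medians of each clone's deviation from the 3-clone mean were near 0 on most chromosomes. Over 856 genes of chromosome 8 the median was 0.14 in clone 8, -0.07 in B2 and -0.06 in A6. Over 810 genes of chromosome 3 it was 0.07 in B2, and over 578 genes of the X chromosome 0.10 in B2, -0.07 in clone 8 and -0.02 in A6. The largest deviations were those of the Y chromosome, with only 9 genes: 0.27 in clone 8, -0.15 in B2 and -0.13 in A6. These are descriptions of 1 array per clone.

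The same clones beside V6.5 ESC show how the contrast with fibroblasts compares in size. Those arrays share the clones, with the dyes the other way, so values are given side by side only, first over MEF and then over ESC. In limma's fit of the ESC arrays none of the genes named here passed, the lowest adjusted p being 0.0766, so no direction against ESC is called. Sox2 was at 7.10 ± 0.0745 over MEF and -0.14 ± 0.0612 over ESC, Cdh1 at 5.75 ± 0.0625 and 0.05 ± 0.0693, and Snai2 at -4.96 ± 0.0581 and 0.16 ± 0.029. Cxcl12 was at -5.36 ± 0.0599 and 0.06 ± 0.0953, and Hoxc9 at -4.22 ± 0.0487 and -0.02 ± 0.0285. For each of these the ratio to ESC was under 0.2 units in size. Among fibroblast genes Tagln was at -4.81 ± 0.0919 and 0.73 ± 0.111, Myl9 at -4.60 ± 0.0855 and 1.03 ± 0.26, and Col1a1 at -6.49 ± 0.0484 and 0.32 ± 0.0654. The values had opposite signs for Zfp42, at 6.35 ± 0.146 and -2.52 ± 0.203, and for Dppa5a, at 7.18 ± 0.0508 and -1.27 ± 0.0802. They were both positive for Rhox5, at 6.52 ± 0.103 and 2.34 ± 0.173, and for Lef1, at 3.87 ± 0.145 and 1.46 ± 0.228. The genes set side by side were chosen after their values were seen.

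**Figure D4:**
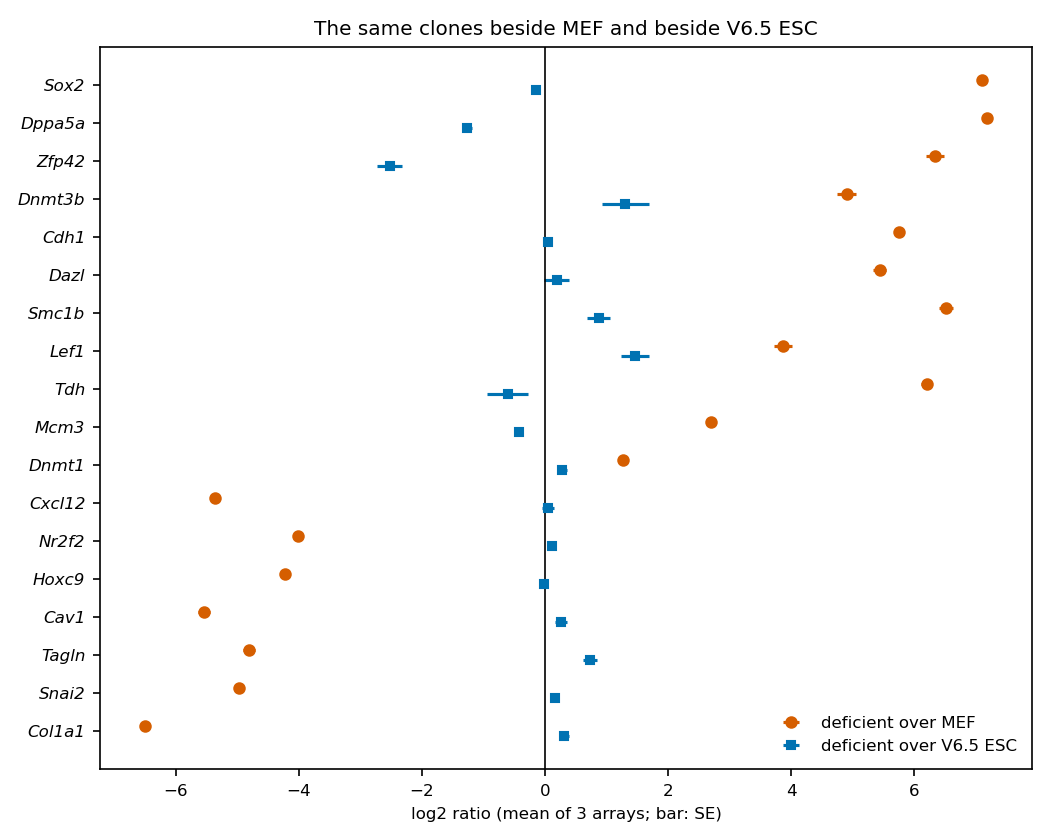
Log2 ratio of the 3 deficient clones over MEF (circles) and over V6.5 ESC (squares), mean of 3 arrays with SE as bars, for 18 genes named in the text. Ratios to MEF run from -6.49 (Col1a1) to 7.18 (Dppa5a), and ratios to ESC from -2.52 (Zfp42) to 1.46 (Lef1).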

How the data were processed

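RNA of 3 Dnmt3ab-deficient iPSC clones was read beside MEF on 3 two-channel Agilent arrays. Per the file headers, Agilent Feature Extraction 10.1.1.1 wrote for each spot and dye a mean intensity, a local background and a processed signal intensity (background subtracted, dyes normalized), with a log10 ratio of the processed signals, Cy5 over Cy3. The authors' deposited table holds log2 ratios per probe, whose scale and direction are not stated and were found by comparison: against the ratio used here, deficient over MEF, the slope was 1.01 to 1.06 and the correlation was at least 0.997 across probes, with column medians of -2.5e-05 to 0.00255. The submitters' processing notes name limma without a version. Probe positions in the files are on mouse build mm7.

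Mean signals were background-corrected (normexp, offset 50) and loess-normalized within arrays in limma 3.58.1 (R 4.3.3, with data.table at version 1.17.8), with Aquantile for the levels behind bounds. Summaries used Python 3.11.15 and pandas 2.3.3. Because loess centres each array, a change in total RNA per cell cannot be seen. Of 41174 non-control probes, 30944 were kept: well above background in at least 2 of 3 deficient or 2 of 3 MEF channels, with 56 others left out for an outlier spot. A gene was its brightest probe. Names came from RefSeq tables by accession for 15237 of 27670 names, by symbol for 2807 and by synonym for 1466, and 8160 kept the file's name. The share of probes well above background was 69.7% to 74.8% per channel, no spot was saturated, and the number of arrays limits the precision.

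The ratio was tested against 0 with lmFit and eBayes (two-sided, Benjamini-Hochberg). Clone 8's own values are its within-slide values, and those without clone 8 are the other slide's. Named genes were Dnmt1, Dnmt3a, Dnmt3b, Dnmt3l, the 4 markers and up to 3 called members of each list each way. Added to them were the 8 largest rises and falls measured in both RNAs, among called genes with all 3 ratios on 1 side. The 8 largest each way by bound and the 8 with the widest range over clones completed the set. The members, the 49 lists and this rule were chosen with earlier results of these data known. Some named genes are not reported here. Alternatives changed the offset, the starting signals, loess, the filter, the rule for probes, the slide term, the arrays in the fit and the clones. Promoter windows are RefSeq's on GRCm38.p6, and a comparison of CpG content over all genes that rose was void, since only 68.7% of those higher by at least 1 unit had a window. All tested genes, with a window for 63.4%, share this limit. Values of CpG content and motifs over them are descriptions only.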

Additional observations from a re-analysis of the deposited data

How the results depend on the processing

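Of the 5924 genes called with a difference of at least 1 log2 unit, each alternative that tested them all called between 5898 and 5924 in the same direction. With only probes above background in both dyes on all 3 arrays, 5417 of 5428 were. The count of genes higher by at least 1 unit was 2771, and 4158 with Agilent's processed signals. Leaving out 1 clone gave 11899 to 14433 genes called, 5979 to 7371 higher and 5920 to 7062 lower, the fewest without A6. At least 1 unit separated 5840 to 5961 of them, 2720 to 2785 higher and 3120 to 3186 lower. Without loess, signs turned for Ldha (0.64), Ndufa2 (0.15), Rps9 (0.60), Rpsa (0.49), Tpi1 (0.077), Trp53 (0.090), Mbd3 (0.11) and Tuba3a (0.50), for the medians of p53 targets (0.21), glycolytic enzymes (0.64) and cholesterol and fatty acid synthesis (0.041), and for 115 called genes. With Agilent's processed signals they turned for Trp53 (0.028), Mbd3 (0.064), p53 targets (0.068) and glycolytic enzymes (0.011). The mean of all probes turned Trp53 (0.46), Tuba3a (1.44), 67 called genes in all, and the median of skeletal muscle markers (0.042). The strict filter turned trophoblast markers (-0.18). A fit over all 18 arrays with a dye term turned Myog (-0.13), which was called lower there and was not called in the main fit. List medians moved by more than the SD over clones, with their sign kept, in 40 of 49 lists without loess, 39 with Agilent's processed signals, 25 with the mean of all probes, 16 with offset 10, 15 with the dye term, 14 with the strict filter, 6 with the deposited table, 2 with the slide term and 3 to 8 without 1 clone. The cause was not tested. A random slide effect could not be fitted with 3 arrays and was not run. A fixed slide term, chosen after seeing the data, gave 7698 higher and 7360 lower. No paired analysis was possible because each ratio already sets a clone against MEF on 1 array, which leaves no further block to fit. Dim genes are limited by background, so their ratios are bounds.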

Other observations

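Further genes were measured in 1 RNA only. Deficient clones held at least 16.4-fold more Ott, an X-linked transcript of ovary and testis, at least 13.8-fold more Mageb4, an X-linked MAGE family gene, at least 16.2-fold more Ppm1n, a protein phosphatase, and at least 14.3-fold more Rps6kl1, a kinase-related gene. MEF held at least 8.78-fold more Pcdhb17, a clustered protocadherin, at least 5.62-fold more Cxcl5, a chemokine that attracts neutrophils, and at least 5.42-fold more Styk1, a membrane kinase. They entered the test through the brighter RNA only, so their calls are no support. Ott and Pcdhb17 have close relatives that a probe may also read.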
